A study of Mus musculus with 3 samples.

Results

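Under the limits used here, narrow, isolated peaks of Ring1B that do not overlap Zrf1 were the largest part of the Ring1B list of mouse neural progenitor cells. They were chosen by 3 measured values of the deposited intervals: a width below 2200 bp, a gap of more than 5 kb to the Ring1B peaks on both sides, and no overlap of 1 bp or more with a Zrf1 peak. Each limit alone kept most Ring1B peaks: 87.7% were narrow, 75.6% were isolated and 83.4% were without Zrf1. The rule picked 6705 of the 11790 Ring1B peaks, or 56.9%, a size that depends on these limits. These peaks covered 8.54 Mb, which is 47.7% of the 17.9 Mb covered by Ring1B.

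The data came from chromatin immunoprecipitation and sequencing (ChIP-seq), in which crosslinked DNA bound by a protein is pulled down with an antibody and sequenced. The cells were neural progenitors (NPCs) derived in culture from E14TG2a, a mouse embryonic stem cell line, and were grown in N2 medium with EGF and FGF2. The series holds 3 libraries from these cells, for which no treatment is named, with antibodies against Ring1B, Zrf1 and rabbit IgG. There was 1 library per antibody, and those against Ring1B and Zrf1 were made in a research laboratory. Peak lists of Ring1B and Zrf1 were analysed, and IgG was not analysed here. The lists give chromosome, start and end in the mouse build mm9, with no score, height or depth. Expression was not measured, so the identity of the cells could not be checked against marker genes.

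Ring1B, the product of Rnf2, is the catalytic subunit of Polycomb repressive complex 1 (PRC1), which attaches ubiquitin to histone H2A. PRC1 is best known for keeping genes of other lineages silent, and in mammals it gathers mainly at CpG islands, from short sites at single promoters to wide domains over clusters of developmental genes. Zrf1, the product of Dnajc2, binds H2A carrying this ubiquitin and is known to be able to displace PRC1 from chromatin when genes are switched on during differentiation.

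With 1 library per antibody there is no replicate, and peaks of 1 library are not replicates of one another. Differences between kinds of peak are therefore given as descriptions, with no test. The intervals around shares are exact (Clopper-Pearson) 95% binomial intervals and cover counting error only. The depth of either library is unknown, and a Ring1B peak counted as lacking Zrf1 is one without an interval in the Zrf1 list, which does not show absence of the protein. The genome and gene models of mm9 were not used here, so the sequences and genes under the peaks are not described.

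More peaks missed the set through crowding or through Zrf1 alone than through width alone. Of all Ring1B peaks, 10340 (87.7%) were narrow. Among these, 2290 lay within 5 kb of another Ring1B peak, which left 8050 narrow isolated peaks. A Zrf1 peak overlapped 1345 of those, or 16.7%, and the other 6705 form the set. Among all 11790 Ring1B peaks, 9834 (83.4%) lacked Zrf1, so the narrow isolated peaks were close to the whole list in this. The remaining isolated peaks were 865 broad ones of 2200 bp or more, of which 650 also lacked Zrf1. A further 1996 narrow peaks without Zrf1 were left out only because another Ring1B peak was near. For 23 of the 6705, the first or last Ring1B peak of a chromosome, the gap could be measured on 1 side only, and these were kept.

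Peaks just inside and just outside each limit differed by a few bp. Whether starts count from 0 or 1 is not known. Counting from 1 makes every width 1 bp larger and every gap 1 bp smaller, and leaves 6704 peaks in the set. The values that follow take the difference of the deposited numbers. The widest peaks in the set measured 2199, 2198 and 2197 bp, and the narrowest isolated ones left out for width measured 2200, 2203 and 2203 bp. The smallest gaps inside the set were 5002, 5004 and 5004 bp, the last 2 belonging to a pair of neighbours on chromosome 11 (79516889 to 79519076 and 79524080 to 79526060) that are each other's nearest Ring1B peak. Just outside, narrow peaks without Zrf1 had gaps of 4988, 4987 and 4985 bp. At the Zrf1 limit, 13 peaks of the set had a Zrf1 peak within 100 bp. The closest lay on chromosome 15 from 98885559 to 98887140, with Zrf1 starting or ending 6 bp away. The next were 11 bp away on chromosome 11 (116248629 to 116249495) and 21 bp away on chromosome 4 (149154489 to 149155377). On the other side, the smallest overlaps were 1, 9 and 14 bp, and 6 of the 1345 narrow isolated peaks with Zrf1 overlapped it by less than 100 bp. The median overlap of those 1345 was 942 bp.

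Within the set, widths spread over a range cut off by the rule at the top alone. The median width was 1235 bp, with quartiles of 959 and 1559 bp, and 10% of the peaks were below 791 bp. The most common 100 bp class was 900 to 1000 bp, with 681 peaks. There were 1995 peaks narrower than 1000 bp and 286 of 2000 bp or more, so the set thinned out before the limit. Only 15 peaks were below 500 bp. The narrowest were 360 bp on chromosome 17 (12223664 to 12224024), 368 bp on chromosome 6 (91928947 to 91929315) and 372 bp on chromosome 4 (80617694 to 80618066). The nearest Ring1B peak to these 3 was 87.6, 248 and 998 kb away. The first of these gaps lies below the upper quartile of the set, 106 kb.

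**Figure D1:**
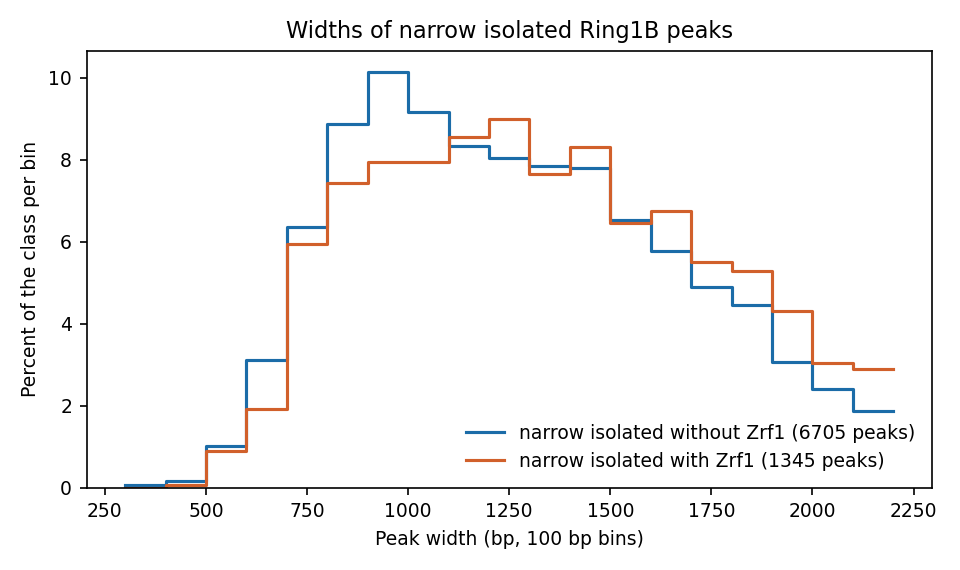
Share of peaks (vertical axis, percent of the class) per 100 bp class of peak width (horizontal axis, bp) for the 6705 narrow isolated Ring1B peaks without Zrf1 and the 1345 with Zrf1. The peaks without Zrf1 have their highest share at 900 to 1000 bp and a median of 1235 bp, and those with Zrf1 lie slightly to the right with a median of 1302 bp.

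The narrow isolated peaks that carried Zrf1 were slightly wider. Their median was 1302 bp (quartiles 1012 and 1650 bp, 1345 peaks), where the set had 1235 bp. The peaks with Zrf1 had the wider median on 14 of the 19 autosomes. Both distributions overlapped over nearly their whole range. Seen the other way, the share of narrow isolated peaks on Zrf1 was 14.3% (206 of 1437, 95% interval 12.6 to 16.3%) at widths of 600 to 900 bp. It was 17.4% (336 of 1926, 95% interval 15.8 to 19.2%) at 1200 to 1500 bp and 20.9% (209 of 1000, 95% interval 18.4 to 23.6%) at 1800 to 2200 bp. A wider interval also has more room to meet any other interval, and that part of the rise was not tested.

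Isolation in the set went far past the 5 kb that the rule asked for. The median gap to the nearest Ring1B peak was 47.3 kb, with quartiles of 20.2 and 106 kb. No other Ring1B peak lay within 100 kb of 1776 peaks (26.5%), within 500 kb of 252 (3.76%), or within 1 Mb of 88 (1.31%). The 3 most remote were all on the X chromosome, at 84483343 to 84483903 with the nearest Ring1B peak 6.05 Mb away, at 19637382 to 19638453 with 4.58 Mb, and at 108009993 to 108010950 with 4.33 Mb. They measured 560, 1071 and 957 bp. Of the 88 peaks more than 1 Mb from any other Ring1B peak, 16 (18.2%) were on the X chromosome.

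The more remote a peak of the set was, the narrower it tended to be. Peaks with a gap of 20 to 50 kb had a median width of 1292 bp (quartiles 986 and 1605 bp, 1823 peaks). The median was 1231 bp at 50 to 100 kb (1449 peaks), 1171 bp at 100 to 200 kb (960 peaks), 1121 bp at 200 to 500 kb (564 peaks) and 1109 bp beyond 500 kb (quartiles 836 and 1442 bp, 252 peaks). At gaps of 5 to 10 kb the median was 1247 bp (662 peaks), so the trend did not hold at the shortest gaps. The shift of the median was smaller than the distance between the quartiles in any class of gap.

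Slightly fewer of these peaks had a Zrf1 peak within 50 or 100 kb than Ring1B peaks without Zrf1 in general. The rule barred overlap with Zrf1. It also barred other Ring1B peaks within 5 kb, and with them nearly all Zrf1 peaks that lie on Ring1B. The shares within 1 and 5 kb are limited by this, so at these distances a difference from Ring1B peaks in general follows in part from the rule. Broad isolated peaks without Zrf1, under the same gap limit, had a share of 6.46% within 5 kb. The median distance to the nearest Zrf1 peak was 44.8 kb (quartiles 17.4 and 112 kb), close to the 47.3 kb to the nearest Ring1B peak. For 3381 of the 6705 peaks (50.4%, 95% interval 49.2 to 51.6%) the nearest Zrf1 peak was closer than the nearest Ring1B peak. A Zrf1 peak lay within 1 kb of 95 peaks (1.42%), within 5 kb of 466 (6.95%, 95% interval 6.35 to 7.59%), within 50 kb of 3563 (53.1%, 95% interval 51.9 to 54.3%) and within 100 kb of 4862 (72.5%). Over all 9834 Ring1B peaks without Zrf1, which include the set, the shares were 2.35% within 1 kb and 9.60% within 5 kb. They were 55.1% within 50 kb and 73.7% within 100 kb. The set lay below each of these values. It makes up 6705 of the 9834 peaks, so its difference from the other peaks alone is larger. At the far end, 105 peaks (1.57%) had no Zrf1 peak within 1 Mb. These distances depend on which Zrf1 peaks are counted. With only Zrf1 peaks of at least the median width, the median distance was 88666.5 bp, no longer close to the gap to Ring1B, and the shares were 4.0% within 5 kb and 35.2% within 50 kb.

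Among the peaks that the rule left, nearest Zrf1 peaks were not more frequent right beside them than a few kb away. The rule had already taken out the 1345 of 8050 narrow isolated peaks that Zrf1 overlapped. The counts therefore cannot show whether Zrf1 gathers at narrow isolated peaks. Per 1 kb of distance from the peak edge, the nearest Zrf1 peak fell 95, 86, 98, 85 and 102 times in the first 5 classes, a flat profile. The gap limit also keeps nearly all Zrf1 peaks that lie on other Ring1B peaks out of these first 5 kb. At 5 to 10 kb, past that limit, the nearest Zrf1 peak fell 567 times. The nearest Zrf1 peak lay on the side of lower coordinates for 49.1% of the peaks (95% interval 47.9 to 50.3%), an even split. Zrf1 peaks within 50 kb were found on both sides for 1054 peaks (15.7%) and on 1 side for 2509 (37.4%).

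The Zrf1 peaks nearest to the set resembled the Zrf1 list as a whole. There were 4360 different ones, with a median width of 795 bp (quartiles 640 and 1026 bp), against 796 bp in all 11647 Zrf1 peaks. Of them, 755 (17.3%, 95% interval 16.2 to 18.5%) lay on some other Ring1B peak, against 17.0% of all Zrf1 peaks. Within 5 kb only 4 of 462 did, a limit set by the rule itself, since a peak of the set has no other Ring1B peak that near.

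Broad isolated peaks without Zrf1 and the set were next compared by their distance to Zrf1. A Zrf1 peak lay within 50 kb of 392 of the 650 broad ones (60.3%, 95% interval 56.4 to 64.1%), against 53.1% of the set. Within 5 kb the shares were 6.46% (95% interval 4.70 to 8.63%) and 6.95%, which overlap within counting error. Ring1B peaks without Zrf1 in clusters of 2 to 4, joined by gaps of at most 5 kb, had a Zrf1 peak within 5 kb in 394 of 2077 cases (18.97%, 95% interval 17.3 to 20.7%). In clusters of 5 or more it was 42 of 402 (10.4%, 95% interval 7.63 to 13.9%). Within 50 kb it was 1289 of 2077 (62.1%, 95% interval 59.9 to 64.2%) in clusters of 2 to 4. In clusters of 5 or more it was 177 of 402 (44.0%, 95% interval 39.1 to 49.0%), lower than in the set. Neighbouring peaks of a cluster can share 1 Zrf1 peak, so those counts are not independent. A clustered peak also has another Ring1B peak within 5 kb, which may carry Zrf1, and the rule bars this for the set. The shares of clusters and set within 5 kb thus differ in part by definition.

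**Figure D2:**
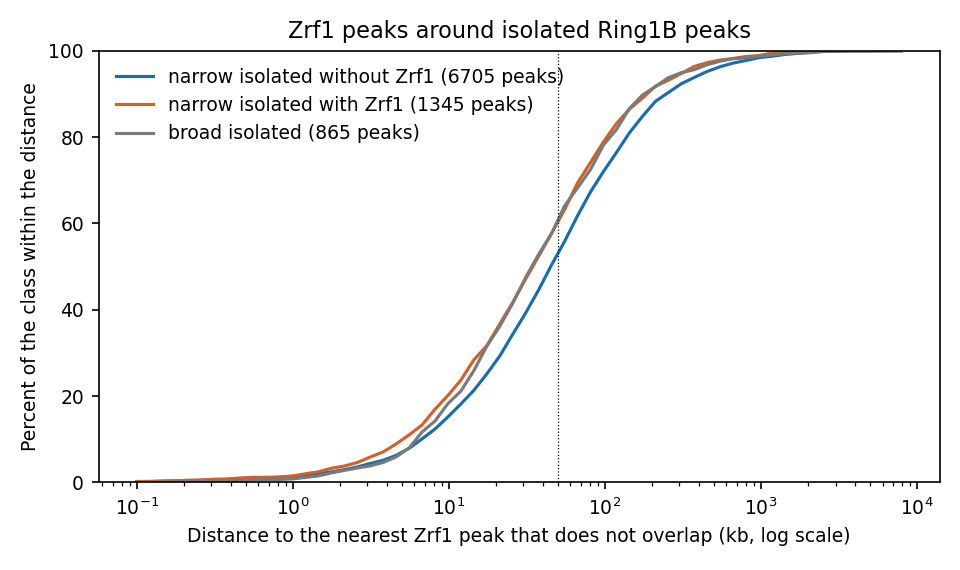
Percent of peaks (vertical axis) that have a Zrf1 peak not overlapping them within the distance on the horizontal axis (kb, log scale), for 3 kinds of isolated Ring1B peak, with broad ones counted whether or not they carry Zrf1. At 50 kb, the dotted line, the narrow peaks without Zrf1 stand at 53.1%, the narrow peaks with Zrf1 at 60.1% and the broad peaks at 60.7%.

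Narrow isolated peaks with Zrf1 sat in denser surroundings than those without. Leaving aside the Zrf1 peak on them, 808 of the 1345 (60.1%, 95% interval 57.4 to 62.7%) had another Zrf1 peak within 50 kb, against 53.1% of the set. Their median distance to the nearest other Zrf1 peak was 33.6 kb, against 44.8 kb. Their median gap to the nearest Ring1B peak was 36.8 kb (quartiles 16.5 and 77.9 kb), against 47.3 kb. The same order held within each of the 6 classes of width examined: at 600 to 900 bp the median gaps were 40.1 kb with Zrf1 and 59.7 kb without, and at 1800 to 2200 bp they were 40.7 and 43.2 kb. The gap to Ring1B was shorter with Zrf1 on 15 of the 19 autosomes, and the share with another Zrf1 peak within 50 kb was higher on 16 of 19. The quartiles of both kinds of peak overlapped widely.

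The share of narrow isolated peaks on Zrf1 fell as isolation grew. It was 19.1% (156 of 818, 95% interval 16.4 to 21.9%) at gaps of 5 to 10 kb and 20.3% (254 of 1249, 95% interval 18.1 to 22.7%) at 10 to 20 kb. At 100 to 200 kb it was 14.4% (162 of 1122, 95% interval 12.4 to 16.6%), and beyond 500 kb 10.3% (29 of 281, 95% interval 7.02 to 14.5%). In the set itself, the share with a Zrf1 peak within 50 kb went from 74.5% (493 of 662) at gaps of 5 to 10 kb to 46.8% (678 of 1449) at 50 to 100 kb and 14.7% (37 of 252) beyond 500 kb. Remote Ring1B peaks were thus remote from Zrf1 as well. Both lists are denser in the same parts of the genome, and that shared density and a relation between the proteins cannot be told apart here.

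**Figure D3:**
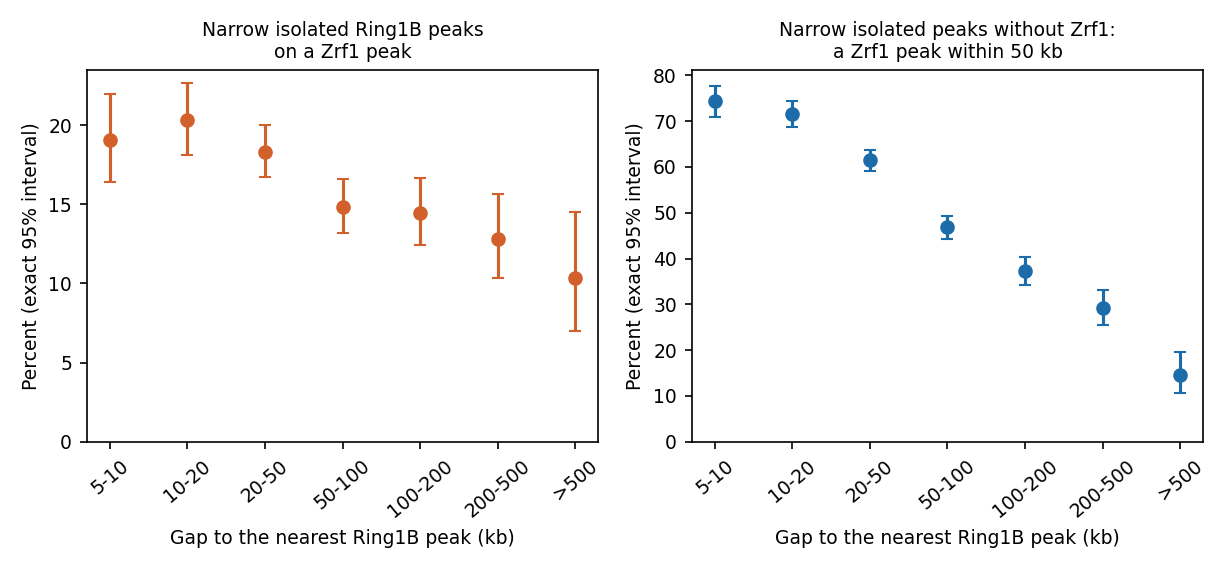
Percent of narrow isolated Ring1B peaks on a Zrf1 peak (left) and percent of those without Zrf1 that have a Zrf1 peak within 50 kb (right), by the gap to the nearest Ring1B peak in kb; points are shares and bars exact 95% intervals. The left share goes from 19.1% at 5 to 10 kb to 10.3% beyond 500 kb and the right share from 74.5% to 14.7%.

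A part of the set stood alone in both lists. No other Ring1B peak and no Zrf1 peak lay within 100 kb of 884 peaks (13.2%, 95% interval 12.4 to 14.0%), within 500 kb of 104 (1.55%) or within 1 Mb of 33. For narrow isolated peaks with Zrf1, leaving aside the Zrf1 peak on them, 128 of 1345 (9.52%, 95% interval 8.0 to 11.2%) were alone within 100 kb.

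Width varied little with the distance to Zrf1 except at both ends. The median width was 1254 bp (2530 peaks) where Zrf1 was 10 to 50 kb away and 1272 bp (1299 peaks) at 50 to 100 kb. It was 1190 bp (1558 peaks) at 100 to 500 kb and 1064 bp (quartiles 783 and 1384 bp, 105 peaks) beyond 1 Mb. Of those 105, 27 were on the X chromosome, where the median width of the set was 916 bp, against 1239 bp on the autosomes. Widths at this distance were not taken on the autosomes alone. The 95 peaks with Zrf1 within 1 kb had a median of 1089 bp (quartiles 969 and 1358 bp). The rule bears on this last value, since a wider peak at the same place reaches the Zrf1 peak and is left out.

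Along the chromosome, peaks of the set met one another about as often as their number among isolated peaks gives. A peak in the middle of a cluster cannot be the neighbour of an isolated peak, so neighbours were counted among isolated Ring1B peaks alone. The set supplied 9154 of the 11970 isolated neighbours of its own peaks (76.5%), and made up 75.2% of the 8915 isolated peaks. For narrow isolated peaks with Zrf1, it supplied 1690 of 2363 (71.5%). Unbroken runs of 5 or more peaks of the set numbered 473 and held 3446 peaks. Runs are long in part because the set is the larger share of the list, and they were not compared with another order. The longest comprised 22 peaks over 18.98 Mb of chromosome 16 (59600134 to 78577808). The next held 21 peaks within 3.73 Mb of chromosome 5 (144049283 to 147775730), and the third 17 within 3.43 Mb of chromosome 18 (11510301 to 14942480).

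In windows of 1 Mb the set reached most of the genome but was spread unevenly. It occupied 1784 of 2649 windows (67.3%), with a median of 1 peak per window and a highest count of 21. The 92 windows with 10 or more peaks of the set held 1111 of them (16.6%). The densest window, chosen after its count was seen, was chromosome 11 from 115000000 to 116000000, which had 21 peaks of the set, 6 other Ring1B peaks and 18 Zrf1 peaks. The next window, chromosome 11 from 116000000 to 117000000, had 20 peaks of the set, 11 other Ring1B peaks and 20 Zrf1 peaks. On chromosome 10 from 79000000 to 80000000 there were 19 peaks of the set, 30 other Ring1B peaks and 35 Zrf1 peaks. Chromosome 5 from 115000000 to 116000000 also had 19 peaks of the set, with 5 other Ring1B peaks and 13 Zrf1 peaks. In 629 windows the set supplied every Ring1B peak, 1447 peaks in all, and 168 of these windows had no Zrf1 peak either. Across windows the number of peaks of the set went with that of Zrf1 peaks (Spearman's rho 0.72) and with that of other Ring1B peaks (Spearman's rho 0.60). The windows share the same libraries and are not replicates.

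Every chromosome with Ring1B peaks carried peaks of the set. Among the 19 autosomes their density ran from 1.81 per Mb on chromosome 14 to 4.23 per Mb on chromosome 11, with 2.74 as the middle value. Their share of the Ring1B list ran from 50.2% on chromosome 11 to 62.9% on chromosome 9. The autosome richest in Ring1B was thus the one where the set made up the smallest share. Across the autosomes, density and share of the set were only weakly related (Spearman's rho -0.2). The gap limit can take out more peaks where Ring1B is dense, and its part in this was not tested. Median widths were close together, from 1155 bp on chromosome 15 to 1313 bp on chromosome 11. The median distance to Zrf1 varied more, from 30.4 kb on chromosome 11 to 64.6 kb on chromosome 18. Across the 19 autosomes the densities of the set and of the other Ring1B peaks went together (Spearman's rho 0.83), as did those of the set and of Zrf1 (Spearman's rho 0.84).

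**Figure D4:**
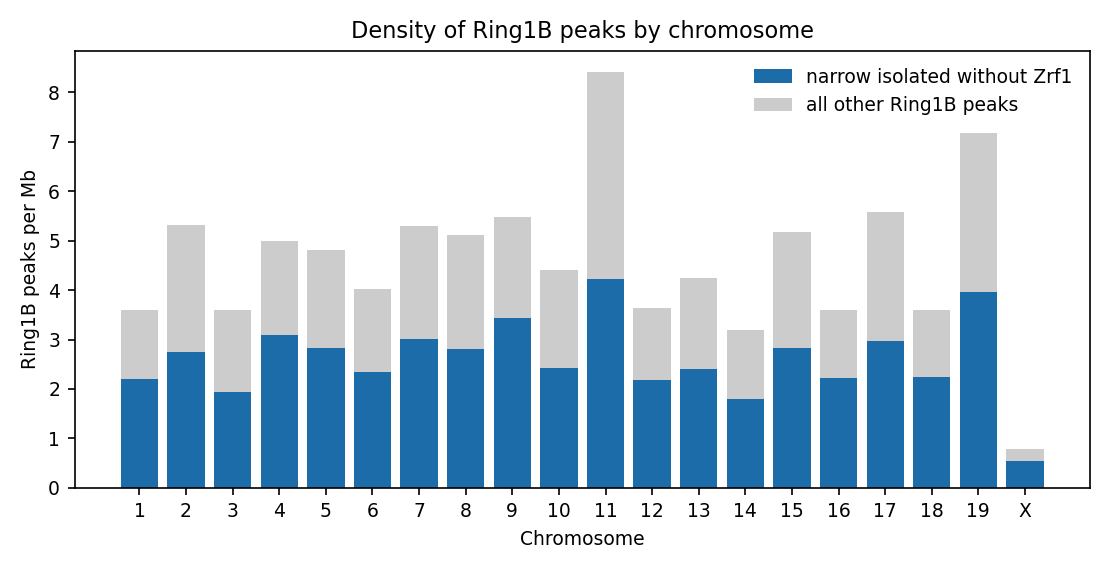
Ring1B peaks per Mb (vertical axis) on each chromosome (horizontal axis), split into narrow isolated peaks without Zrf1 and all other Ring1B peaks. Chromosome 11 has the most of the first kind, 4.23 per Mb, and the X chromosome the fewest, 0.552 per Mb.

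On the X chromosome the set was sparse and its peaks were narrower. It held 92 peaks of the set, 0.552 per Mb against 2.67 per Mb on the autosomes, a ratio of 0.206. For all Ring1B peaks that ratio was 0.165, so the set made up 70.8% of the Ring1B peaks there (95% interval 62.2 to 78.4%), above its share on any autosome. The X chromosome, with 130 Ring1B peaks in all, had no broad isolated peak and no cluster of 5 or more. The autosomes had 865 broad isolated peaks among 11660 Ring1B peaks. The set had a median width of 916 bp on the X chromosome (quartiles 743 and 1143 bp), against 1239 bp on the autosomes (quartiles 963 and 1563 bp), and below the median of each autosome. Of the 92, 57 were narrower than 1000 bp (62.0%, 95% interval 51.2 to 71.9%), against 29.3% on the autosomes. Outside the set, the 33 X-linked peaks in clusters of 2 to 4 had a median of 1162 bp, against 1337 bp on the autosomes, and the 5 narrow isolated ones with Zrf1 988 bp, against 1303 bp. The copy number and read depth of the X chromosome were not examined, and their part in these values was not tested.

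Zrf1 was far from most of the X-linked peaks. The median distance was 495 kb, against 44.1 kb on the autosomes, and a Zrf1 peak lay within 50 kb of 5 of the 92 (5.43%, 95% interval 1.79 to 12.2%). On the autosome with the lowest such share, chromosome 13, it was 41.9%. Of the 105 peaks more than 1 Mb from Zrf1, 27 were X-linked. The farthest 3 were all X-linked, at 147530373 to 147531487 (6.62 Mb), 84483343 to 84483903 (6.56 Mb) and 147602903 to 147603981 (6.55 Mb). The first and the last of these are each other's nearest Ring1B peak, 71.4 kb apart. Zrf1 peaks were themselves sparse on this chromosome, at 0.426 per Mb, and the shares were not corrected for that.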

How the data were processed

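The authors deposited the 2 peak lists as bare intervals (chromosome, start, end) with no header. Per the submitters' processing notes, Bowtie 0.12.7 (a read aligner), MACS 1.4.2 (a peak caller) and the build mm9 were used. The threshold is not given in the sources used here, nor are the control and filters. Lists were matched to libraries through the antibody named.

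Width was end minus start, and distances ran from edge to edge. Overlap meant at least 1 bp. Clusters joined Ring1B peaks with gaps of at most 5 kb. Chromosome lengths came from GenomeInfoDb 1.38.1. Peaks were named by rank: 3 each for width, remoteness, distance to Zrf1 and each limit of the rule. The members and comparisons were chosen with earlier results of these data known, and no test was made. Planned descriptions of sequence content and gene starts were not run, since the gene tables at hand (GRCm38.p6) are of another build.

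The code was tested on simulated data, where 4944 of 4944 peaks were put in the planted class. Overlaps and distances of all 11790 Ring1B peaks equalled those of bedtools 2.31.1. Python 3.11.15, NumPy 2.4.6, SciPy 1.17.1, pandas 2.3.3 and matplotlib 3.10.9 were used.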

Additional observations from a re-analysis of the deposited data

How the results depend on the processing

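The rule was varied in 9 ways, and the number of peaks in the set stayed between 5585 and 7201. These included a restriction to the autosomes and the X chromosome, which could change no value because the Ring1B list holds no other chromosome. The median width was 1131 bp with the width limit at 1700 bp, 1269 bp at 2700 bp, and 1298 bp without the narrowest 10% of Ring1B peaks. The median gap to Ring1B was 41993 bp with the gap limit at 2 kb and 54827 bp at 10 kb. These follow from the choice of peaks. At 10 kb the median distance to Zrf1 was 48477 bp and the share within 50 kb of Zrf1 50.8%. The share within 5 kb was 8.08% with gaps above 2 kb and 5.61% when Zrf1 within 1 kb was barred. With only Zrf1 peaks of at least the median width, the median distance was 88666.5 bp and the shares 4.0% within 5 kb and 35.2% within 50 kb, as fewer Zrf1 peaks entered. The density on the X chromosome over that on the autosomes was 0.155 without the narrowest 10%, where the X-linked median width was 1067 bp, and the cause was not tested. In the other alternatives that ratio was 0.195 to 0.240. With starts counted from 1, also added after seeing the data, the set held 6704 peaks and the other values stayed within their intervals. Further values were added after seeing the data, under the same alternatives. The share of narrow isolated peaks on Zrf1 ranged from 13.7 to 17.9%, the share alone within 100 kb from 12.3 to 19.3%, and the X-linked median width from 901 to 1067 bp. No paired analysis was possible because each antibody had 1 library. Depth is unknown, so peaks under the calling threshold are missed in numbers that cannot be given.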
